A study of Homo sapiens with 18 samples.

Results

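Genes of the insulin-like growth factor (IGF) axis were followed in ventral forebrain organoids exposed to dopamine or cocaine. The set held 10 of the 53853 genes in the count table: the ligand genes IGF1 and IGF2, the receptor genes IGF1R and IGF2R, the binding protein genes IGFBP2, IGFBP3, IGFBP4, IGFBP5 and IGFBP7, and H19, a non-coding RNA gene beside IGF2. They were taken by symbol, and all 10 were among the 18913 genes that passed the filter on low counts. The set was selected on measured values: IGF2 leads it because its CPM was already known to be higher with cocaine than with control in these libraries. The comparison of cocaine with control is therefore given as a description: genes called there are counted beside the background, but no p of the 10 genes is given and the count supports nothing.

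The organoids were grown from H9, a human embryonic stem cell line, as neural tissue in suspension, and given 100 ng/mL SHH and 1 µM purmorphamine from day 10 to direct them to ventral identity. All groups received ascorbic acid at 100 µM. From day 83, daily 1 h exposures were given for 1 week: ascorbic acid alone (control), dopamine at 1 µM or cocaine at 1 µM, each with or without acetylcysteine at 100 µM as the inhibitor of reactive oxygen species. Each of the 6 groups held 3 polyA RNA libraries of 23789195 to 30327891 reads. The differentiation medium that all groups shared contained 0.025% insulin solution, so ligand of the related insulin receptor was also supplied by the medium. Whether the libraries of one group were separate cultures is not stated, so p-values refer to the spread among these libraries, part of which may be technical. Replicate numbers follow deposit order and only name libraries.

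IGF1 and IGF2 are secreted peptides that bind IGF1R, a receptor tyrosine kinase that signals through IRS adaptors, PI3K and AKT to promote survival, growth and division. IGF2R lacks such a kinase and delivers IGF2 to lysosomes, while the binding proteins hold the ligands in the extracellular fluid and either restrain or present them. IGF2 and H19 are imprinted neighbours, expressed in most tissues from the paternal and the maternal copy respectively, and in the developing brain IGF2 is known as a product of choroid plexus and meninges that reaches neural progenitors through the cerebrospinal fluid.

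Sequences are given for H19, the most variable member over the libraries, and for IGF2R, among the steadiest. H19 lies on the minus strand at chr11:1995176-2001266 and encloses the hairpin of MIR675 at chr11:1996759-1996831. Both mature microRNAs made from that hairpin are given from RefSeq (GRCh38.p14), 5′ to 3′ with the seed, bases 2 to 8, in capitals, because H19 transcripts are their precursor; their seeds differ, and mature microRNAs are not measured by polyA libraries. The hairpin had 0 assigned reads in all 18 libraries.
hsa-miR-675-5p: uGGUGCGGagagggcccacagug
hsa-miR-675-3p: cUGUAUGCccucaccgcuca

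Promoter windows from RefSeq (GRCh38.p14), 250 bases before to 50 after the start, were found for 8 of the 10 genes, the exceptions being IGF2 and IGFBP7. The windows were searched on both strands for TATAAA (held by 11.5% of 35116 promoters), the GC box GGGCGG (45.0%) and CACGTG (7.26%). H19 (chr11:2001217-2001516, minus strand) held none of them. IGF2R (chr6:159968832-159969131, plus strand) held 6 GC boxes and 3 copies of CACGTG, in capitals below, with a pair of the GC boxes overlapping each other and none overlapping CACGTG. A match describes letters in the window only.
H19 promoter: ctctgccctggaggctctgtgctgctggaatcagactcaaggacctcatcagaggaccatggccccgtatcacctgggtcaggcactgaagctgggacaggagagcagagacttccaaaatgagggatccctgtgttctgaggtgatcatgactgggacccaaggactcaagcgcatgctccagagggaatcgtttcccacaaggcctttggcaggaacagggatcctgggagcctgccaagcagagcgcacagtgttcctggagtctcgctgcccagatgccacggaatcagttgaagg
IGF2R promoter: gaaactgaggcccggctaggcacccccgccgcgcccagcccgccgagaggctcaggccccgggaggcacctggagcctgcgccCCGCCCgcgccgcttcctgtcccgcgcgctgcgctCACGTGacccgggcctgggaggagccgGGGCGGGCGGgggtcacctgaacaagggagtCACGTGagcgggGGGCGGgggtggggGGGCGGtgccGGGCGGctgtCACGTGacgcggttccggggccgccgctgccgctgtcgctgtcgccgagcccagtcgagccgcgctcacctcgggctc

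Both receptor promoters were rich in CpG, with 55 CpG in the IGF1R window and 41 in that of IGF2R, against a median of 14 over all promoters. The H19 window held 6. The IGF1 windows held 0 and 1, the fewest among the 8 genes.

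Per unit of length, mRNA of the binding proteins far outweighed that of the ligands. In TPM (length-scaled transcript abundance), averaged over the 18 libraries, the order was IGFBP2 at 277, IGFBP5 at 133, IGF1R at 51.9, IGFBP7 at 43.8, IGF2R at 32.9, IGFBP4 at 24.8, IGFBP3 at 15.98, H19 at 3.89, IGF2 at 3.82 and IGF1 at 1.60. In the 3 controls IGFBP7 was lower, at 15.9 ± 6.71 TPM (SD, n = 3), and its range overlapped those of IGFBP4 and IGFBP3. The other neighbours in the order of control levels had separate ranges. Summed over both ligands, the level was 3.65 to 9.35 TPM (median 5.37), whereas the 5 binding proteins together reached 378 to 666 TPM. IGFBP2 supplied 43.6 to 68.3% of the binding protein TPM, IGFBP5 supplied 20.2 to 40.3%, and IGFBP7 supplied 2.16 to 20.2%.

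**Figure D1:**
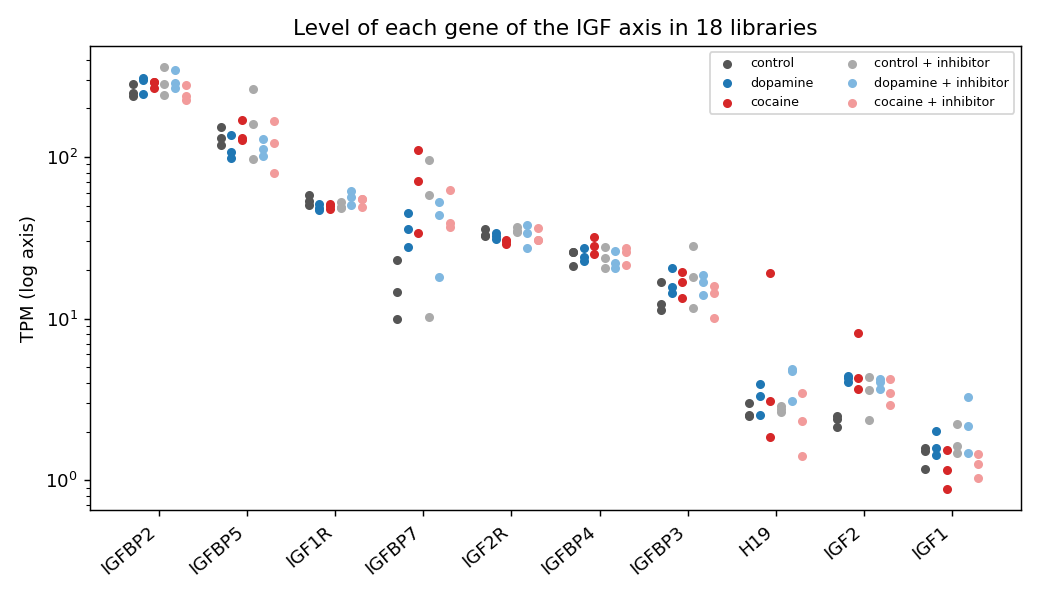
TPM (log axis) of the 10 genes in each of 18 libraries, ordered by the mean over libraries, with 1 point per library and colours for the 6 groups. IGFBP2 and IGFBP5 sit highest, and the points of IGFBP7 and H19 are the most scattered.

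The genes differed widely in how much they varied. The coefficient of variation of CPM (a gene's reads scaled to a common library size) over the 18 libraries was 101% for H19, 63.9% for IGFBP7, 35.6% for IGF2, 32.7% for IGF1, 29.7% for IGFBP5 and 25.2% for IGFBP3. It was 13.7% for IGFBP4, 12.6% for IGFBP2, 7.72% for IGF2R and 7.12% for IGF1R. The receptors were thus the steadiest members, with a highest level only 1.26 times the lowest for IGF1R and 1.34 times for IGF2R.

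IGF2, the fetal growth factor gene at chr11:2129117-2149566 on the minus strand, was lowest in the controls, at 4.36, 3.74 and 4.22 CPM in libraries 1 to 3. Dopamine libraries held IGF2 at 7.35, 7.75 and 7.57 CPM, and cocaine libraries at 7.72, 14.8 and 6.80 CPM. The 3 dopamine libraries lay close together above every control, while the cocaine group was spread by library 2, whose level was 1.91 times the next highest of all 18. With the inhibitor, IGF2 was at 7.64, 4.15 and 6.29 CPM in control + inhibitor, at 6.60, 7.28 and 7.11 CPM in dopamine + inhibitor, and at 6.38, 7.47 and 5.23 CPM in cocaine + inhibitor. Of the 15 libraries outside the control group, 14 exceeded the highest control, the exception being control + inhibitor 2. These levels rested on 111 to 371 reads per library.

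**Figure D2:**
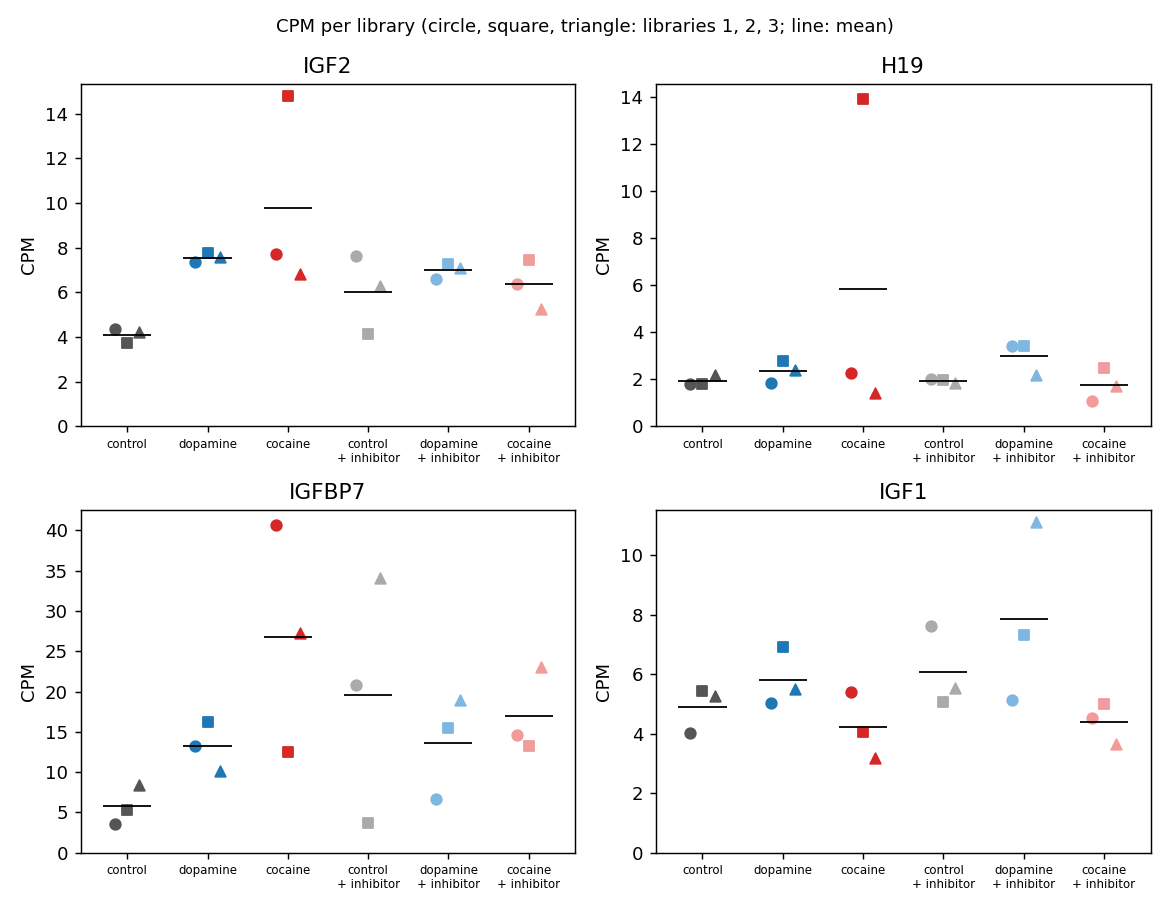
CPM of IGF2, H19, IGFBP7 and IGF1 in each library by group, with 1 symbol per library (circle, square and triangle for libraries 1, 2 and 3) and a line at the mean of 3. Cocaine 2 stands above all other libraries for IGF2 (14.8 CPM) and H19 (13.9 CPM).

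Dopamine against control was tested, although it shares its control libraries with the cocaine comparison. Those controls entered the choice of IGF2, so its p-values against them lean towards passing and support nothing. IGF2 was 7.56 ± 0.201 CPM with dopamine and 4.11 ± 0.327 CPM in control (SD, n = 3), a log2 fold change of 0.88 (SE 0.25). It did not pass over all genes in the edgeR quasi-likelihood fit of the 6 groups (adjusted p = 0.113, unadjusted p = 0.00279). The call depended on the test: the adjusted p was 0.0229 with DESeq2 and 0.00326 when edgeR was fitted to these 2 groups alone, and it ran from 0.00326 to 0.389 over 11 alternatives. IGF2 was not listed in the authors' deposited table of this comparison, which keeps genes that changed by 1 or more on the log2 scale.

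Acetylcysteine alone gave IGF2 at 6.03 ± 1.76 CPM (SD, n = 3), overlapping the controls through library 2, with a log2 fold change of 0.55 (SE 0.25, edgeR adjusted p = 0.866), and 0.34 without control + inhibitor 1. The controls are again those that entered the choice of IGF2. With acetylcysteine in both arms, IGF2 was close to level between groups. The log2 fold change was 0.08 for cocaine + inhibitor against control + inhibitor (edgeR adjusted p = 0.908), and its sign turned when a single library was left out. For dopamine + inhibitor against control + inhibitor it was 0.21 (edgeR adjusted p = 0.978), and 0.0066 without control + inhibitor 2 or 0.42 without control + inhibitor 1. In both cases the groups overlapped. All 3 dopamine + inhibitor libraries lay just below all 3 dopamine libraries, with a log2 fold change of -0.11.

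Cocaine against control is described without a test. IGF2 was at 9.77 ± 4.37 CPM with cocaine (SD, n = 3), a log2 fold change of 1.25, and all 3 cocaine libraries exceeded all controls. Without cocaine 2 the log2 fold change was 0.83. In the authors' deposited table of cocaine against control, IGF2, H19 and IGFBP7 are listed with log2 fold changes of 1.25, 1.61 and 2.22. Where cocaine libraries enter other comparisons, the same libraries that led to the choice of IGF2 are in use. Among these, cocaine + inhibitor against cocaine gave a log2 fold change of -0.62 for IGF2, with overlapping groups (edgeR adjusted p = 1.00), and the difference between the cocaine effects with and without inhibitor was -1.17 (SE 0.35, edgeR adjusted p = 0.918), or -0.75 without cocaine 2.

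Counting cannot fully assign reads at this locus, since IGF2 overlaps INS-IGF2, a readthrough gene, and IGF2-AS on the other strand, and no source used here gives the strand setting. INS-IGF2 had 10 reads in cocaine 2, 3 reads in dopamine + inhibitor 1 and 0 in the other 16 libraries. IGF2-AS had 0 to 8 reads per library.

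IGF1, the ligand gene known from liver and also made by some neurons and glia, lies at chr12:102395874-102481839. It was at 4.02, 5.42 and 5.27 CPM in control, at 5.04, 6.91 and 5.49 CPM with dopamine and at 5.39, 4.07 and 3.20 CPM with cocaine. With the inhibitor it was at 7.61, 5.07 and 5.52 CPM in control + inhibitor, at 5.15, 7.32 and 11.1 CPM in dopamine + inhibitor and at 4.52, 4.99 and 3.67 CPM in cocaine + inhibitor. The cocaine + inhibitor libraries were all below those of both other inhibitor groups, and dopamine + inhibitor 3 was the highest of the 18. Against dopamine + inhibitor the log2 fold change was -0.84 (SE 0.25), which did not pass (edgeR adjusted p = 0.165, unadjusted p = 0.00418), and it was -0.50 without dopamine + inhibitor 3. Against control + inhibitor it was -0.47 (edgeR adjusted p = 0.367).

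H19, whose start lies 127850 bases from the end of IGF2, was low and even in most libraries. It was at 1.80, 1.79 and 2.17 CPM in control, at 1.84, 2.79 and 2.38 CPM with dopamine, and at 2.25, 13.9 and 1.39 CPM with cocaine. With the inhibitor it was at 2.02, 1.95 and 1.85 CPM in control + inhibitor, at 3.43, 3.41 and 2.17 CPM in dopamine + inhibitor, and at 1.06, 2.48 and 1.70 CPM in cocaine + inhibitor. Cocaine 2, with 349 reads, was at 4.06 times the next library, and without it the cocaine mean was 1.82 CPM, inside the range of the controls. The log2 fold change of cocaine against control was 1.61 with all libraries and -0.07 without cocaine 2.

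Cocaine 2 also stood apart in genes of posterior identity. HOXB9 was at 87.6 CPM there and next highest in cocaine 3, at 24.3 CPM. HOXA9 was at 23.6 CPM there and at most 4.93 CPM elsewhere. Cocaine 3 had the lowest H19 (1.39 CPM) and IGF2 (6.80 CPM) of the cocaine group. The part of posterior identity in the H19 and IGF2 levels of cocaine 2 was not tested. All 3 dopamine + inhibitor libraries were above all control + inhibitor libraries for H19, with a log2 fold change of 0.63 that did not pass in edgeR (adjusted p = 0.973).

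Levels of the receptors barely moved. IGF1R, at chr15:98648539-98964530, was at 195, 209.6 and 184 CPM in control, 174, 175 and 188 CPM with dopamine, and 182, 191 and 182 CPM with cocaine. With the inhibitor it was at 177, 176 and 189 CPM in control + inhibitor, 187, 203 and 219.8 CPM in dopamine + inhibitor, and 209, 179 and 204 CPM in cocaine + inhibitor. No comparison had groups that lay apart. The dopamine effect differed between the arms with and without inhibitor by 0.30 on the log2 scale (SE 0.10), which did not pass (edgeR adjusted p = 0.465, unadjusted p = 0.0057).

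IGF2R, at chr6:159969082-160111504, was at 126, 138 and 126 CPM in control, at 123, 124 and 132 CPM with dopamine and at 114, 120.1 and 124 CPM with cocaine. All 3 cocaine libraries lay below all 3 controls, by a small margin (log2 fold change -0.13, described without a test). In the inhibitor groups its level ran from 107 to 144 CPM. INSR, the insulin receptor gene that pairs with IGF1R in hybrid receptors, was at 24.4 to 33.2 TPM, and INS itself had 2 reads in all libraries together.

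Among the binding proteins, IGFBP7 varied most. This gene, at chr4:57030773-57110385, encodes a low-affinity family member found in vessel walls and matrix. It was at 3.57, 5.29 and 8.41 CPM in control, at 13.3, 16.3 and 10.1 CPM with dopamine, and at 40.7, 12.4 and 27.2 CPM with cocaine. With the inhibitor it was at 20.8, 3.69 and 34.1 CPM in control + inhibitor, at 6.60, 15.5 and 18.9 CPM in dopamine + inhibitor, and at 14.7, 13.3 and 23.0 CPM in cocaine + inhibitor. Every library of the dopamine, cocaine and cocaine + inhibitor groups lay above all controls, while dopamine + inhibitor 1 and control + inhibitor 2 lay within the range of the controls.

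Dopamine against control gave a log2 fold change of 1.20 for IGFBP7 (SE 0.70, 95% interval -0.17 to 2.56), which did not pass in edgeR (adjusted p = 0.485). The authors' deposited table of this comparison gives it a log2 fold change of 1.20 with a false discovery rate (FDR) of 0.0029. Control + inhibitor against control gave 1.76 (SE 0.69, edgeR adjusted p = 0.864), which ran from 1.09 without control + inhibitor 3 to 2.24 without control + inhibitor 2. Cocaine against control was 2.22, described without a test. The difference between the cocaine effects with and without inhibitor was -2.41 (SE 0.94, edgeR adjusted p = 0.918).

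Over the libraries, IGFBP7 followed markers of choroid plexus, the secretory epithelium of the ventricles. The summed level of 13 such markers was 120 to 279 TPM in control, 364 to 435 TPM with dopamine, 307.5 to 1096 TPM with cocaine, 157 to 805 TPM in control + inhibitor, 202 to 651 TPM in dopamine + inhibitor and 248 to 598 TPM in cocaine + inhibitor, and none of the 13 was at 0 reads throughout a group. The sum weighs markers by level: TTR averaged 240 TPM and OTX2 109 TPM, whereas KL averaged 0.405 TPM. Over the 18 libraries the log2 CPM of IGFBP7 followed this sum with Pearson's r = 0.964 and Spearman's rho = 0.961. With TTR alone r was 0.953, so the relation need not hold for each of the 13 markers. For the sum, r and rho each had a permutation p of 1e-05, the smallest that 100000 permutations can give. The adjusted p of each was 0.0004 over 40 relations of the 10 genes with 4 marker lists. All 17 lists were chosen with earlier results of these data known. The adjustment does not cover the choice of lists, so the p-values of all relations with marker lists are given as a description. Without cocaine 1 and control 1, the libraries farthest from the median sum, r was 0.943, and within groups it was 0.956. IGFBP7 also followed the 14 radial glia and astrocyte markers (r = 0.76, rho = 0.701, adjusted permutation p = 0.0076 and 0.0111, and r = 0.755 without cocaine 2 and control + inhibitor 2). It followed the 15 mesenchymal, meningeal and mural markers too (r = 0.676, rho = 0.732, adjusted permutation p = 0.0168 and 0.0093, and r = 0.53 without dopamine + inhibitor 1 and control + inhibitor 2). With the 10 dividing cell markers r was 0.553 and rho 0.728 (adjusted permutation p = 0.07 and 0.0093), and r was 0.655 without cocaine 3 and cocaine + inhibitor 1. Within groups r was 0.658 with the radial glia and astrocyte list and 0.718 with the mesenchymal, meningeal and mural list. It was 0.407 with the dividing cell list. The part of any of these cells in the IGFBP7 differences between groups was not tested. In bulk samples, more cells of a type and more RNA per cell cannot be told apart.

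**Figure D3:**
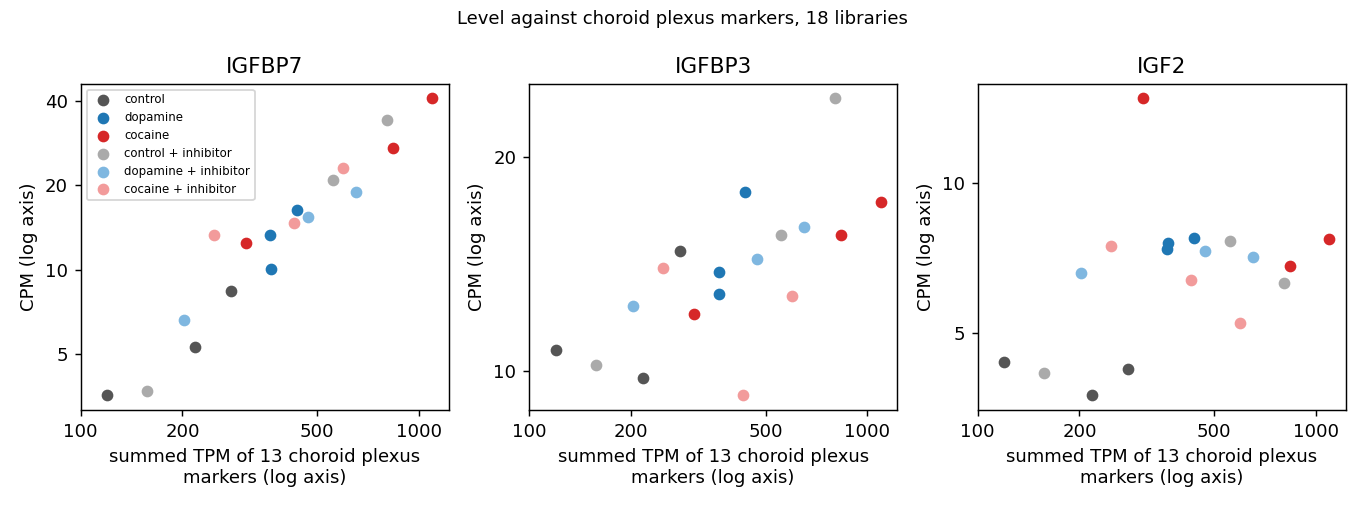
CPM of IGFBP7, IGFBP3 and IGF2 (log axis) against the summed TPM of 13 choroid plexus markers (log axis), 1 point per library, coloured by group. IGFBP7 follows the markers closely (r = 0.964), IGFBP3 loosely (r = 0.684), and the relation for IGF2 did not pass (r = 0.394).

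IGF2 itself followed those markers less, with r = 0.394 and rho = 0.379 (adjusted permutation p = 0.306 and 0.336), 0.27 without the same 2 libraries, and -0.12 within groups. Its relation to 14 radial glia and astrocyte markers was r = 0.584 and rho = 0.517 (adjusted permutation p = 0.0559 and 0.12), 0.39 without cocaine 2 and control + inhibitor 2, and 0.472 within groups. By Pearson's r over 18 libraries, the 5 genes most like IGF2 among 12609 genes of at least 5 CPM on average were SELK (0.83), VIM (0.79), SAT1 (0.78), DARS (0.76) and MVB12A (0.76). VIM encodes vimentin, an intermediate filament of radial glia. Ranked by Spearman's rho, only SELK stayed among the first 5. For H19 the first 4 were LOC105379028 (0.73), SLITRK2 (0.73), ARRDC1-AS1 (0.68) and TOM1 (0.67), a ranking in which the high level of cocaine 2 enters. Of these 4, only LOC105379028 was among the first 5 by Spearman's rho. For IGFBP7, added after its values were seen, they were CLIC6 (0.98), SLC2A12 (0.97), TTR (0.95), SLC4A5 (0.95) and MYOF (0.94), of which CLIC6, TTR and SLC4A5 are in the choroid plexus list.

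IGFBP3, at chr7:45912245-45921272, encodes the main ligand carrier of blood plasma. It was at 10.7, 9.80 and 14.8 CPM in control, at 12.9, 17.9 and 13.8 CPM with dopamine and at 17.3, 12.04 and 15.5 CPM with cocaine. The inhibitor groups ran from 9.25 to 24.2 CPM, and all groups overlapped with their references. It followed the choroid plexus sum with r = 0.684 and rho = 0.711 (adjusted permutation p = 0.0168 and 0.0109), 0.64 without cocaine 1 and control 1, and 0.705 within groups. With IGFBP7 it gave the highest correlation between members (r = 0.72, and 0.83 within groups). IGF2 with H19 came next, at 0.67 and 0.73 within groups. These correlations are over 18 libraries that differ in depth and in the levels of cell type markers. Such differences bear on both genes of a pair, so the correlations are given as a description.

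**Figure D4:**
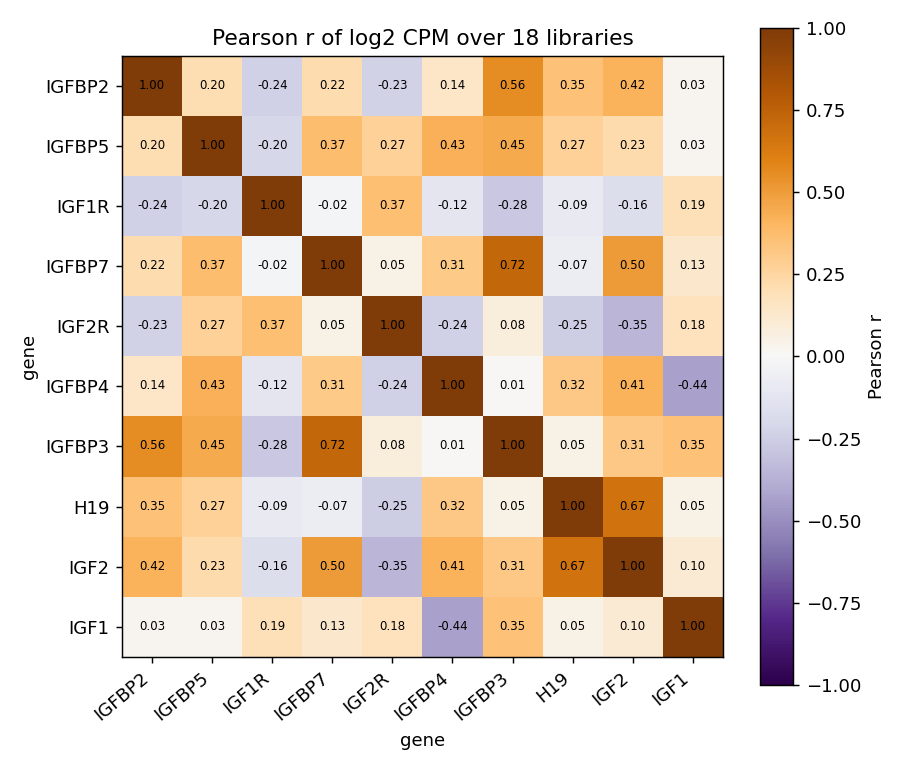
Pearson's r of log2 CPM between the 10 genes over 18 libraries, 1 cell per pair on a scale from -1 to 1. IGFBP3 with IGFBP7 (0.72) and IGF2 with H19 (0.67) give the highest values off the diagonal.

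IGFBP2 and IGFBP5, the most abundant members, are neighbours on chromosome 2, at chr2:216632828-216664436 and chr2:216672105-216695549, with 7668 bases between their ends. Over the libraries they correlated little (r = 0.20). IGFBP2, known in radial glia and cerebrospinal fluid, ran from 129 CPM in cocaine + inhibitor 1 to 196 CPM in control + inhibitor 3. Its group means lay between 139 and 164 CPM. IGFBP5, known in differentiating neurons and muscle, was at 223, 202 and 262 CPM in control and at 443, 167 and 269 CPM in control + inhibitor. That group held the highest library of the 18 and one below all controls.

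IGFBP5 followed the radial glia and astrocyte list (r = 0.676, rho = 0.75, adjusted permutation p = 0.0168 and 0.008), with r = 0.618 without cocaine 2 and control + inhibitor 2 and 0.85 within groups. It also followed the 15 mesenchymal, meningeal and mural markers (r = 0.638, rho = 0.678, adjusted permutation p = 0.0323 and 0.015, 0.599 without dopamine + inhibitor 1 and control + inhibitor 2, and 0.697 within groups). IGFBP4, at chr17:40443450-40457725, a ligand-sequestering protein cleaved by the protease PAPPA, was at 12.9 to 15.9 CPM in control and at 15.7 to 20.2 CPM with cocaine. The groups overlapped.

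Counted over the comparisons, few members were called at an adjusted p under 0.05 in edgeR. In cocaine against control 1 of 10 was called, IGF2, where 4.33% of all genes were called. Groups did not overlap for 3 members, IGF2 and IGFBP7 higher and IGF2R lower, where 32.3% of all genes did not overlap. The count called was 0 without cocaine 2, cocaine 3 or any single control. Since values of this comparison led to the choice of IGF2, nothing is read from these counts. In dopamine against control 0 of 10 were called, against 0.703% of all genes. Here 1 member, IGF2, had an unadjusted p under 0.05, as did 14.1% of all genes, and DESeq2 called 1 and limma-voom 0. Groups did not overlap for 2 members, IGF2 and IGFBP7, both higher with dopamine, against 23.9% of all genes. The same controls entered the choice of IGF2, so nothing is read from its counts against them.

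In the other 9 comparisons edgeR, DESeq2 and limma-voom each called 0 of 10. For cocaine + inhibitor against control + inhibitor the background was 0.0211% of all genes called, and 0 members had an unadjusted p under 0.05 beside 16.6% of all genes. For dopamine + inhibitor against control + inhibitor it was 0.00529%, with 1 member beside 5.58% at the unadjusted level. For dopamine + inhibitor against dopamine it was 0.00529%, with 1 member beside 8.67%, and for the dopamine by inhibitor interaction 0.00529%, with 1 member beside 8.35%. IGF1R was the member in these 3 cases.

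No gene of the whole table was called in the remaining 5 comparisons (0.0%). Control + inhibitor against control had 2 members at an unadjusted p under 0.05, IGFBP7 and IGF2, beside 5.72% of all genes, and cocaine + inhibitor against cocaine had 2, H19 and IGF2, beside 3.21%. Cocaine against dopamine had 0 beside 11.8%, and cocaine + inhibitor against dopamine + inhibitor had 1, IGF1, beside 16.6%. The cocaine by inhibitor interaction had 3, IGF2, IGFBP7 and IGF1R, beside 5.26%. A single member kept its groups apart in each of 4 comparisons: IGF1 in cocaine + inhibitor against control + inhibitor (16.6% of all genes) and against dopamine + inhibitor (17.1%), H19 in dopamine + inhibitor against control + inhibitor (10.2%), and IGF2 in dopamine + inhibitor against dopamine (15.1%).

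**Figure D5:**
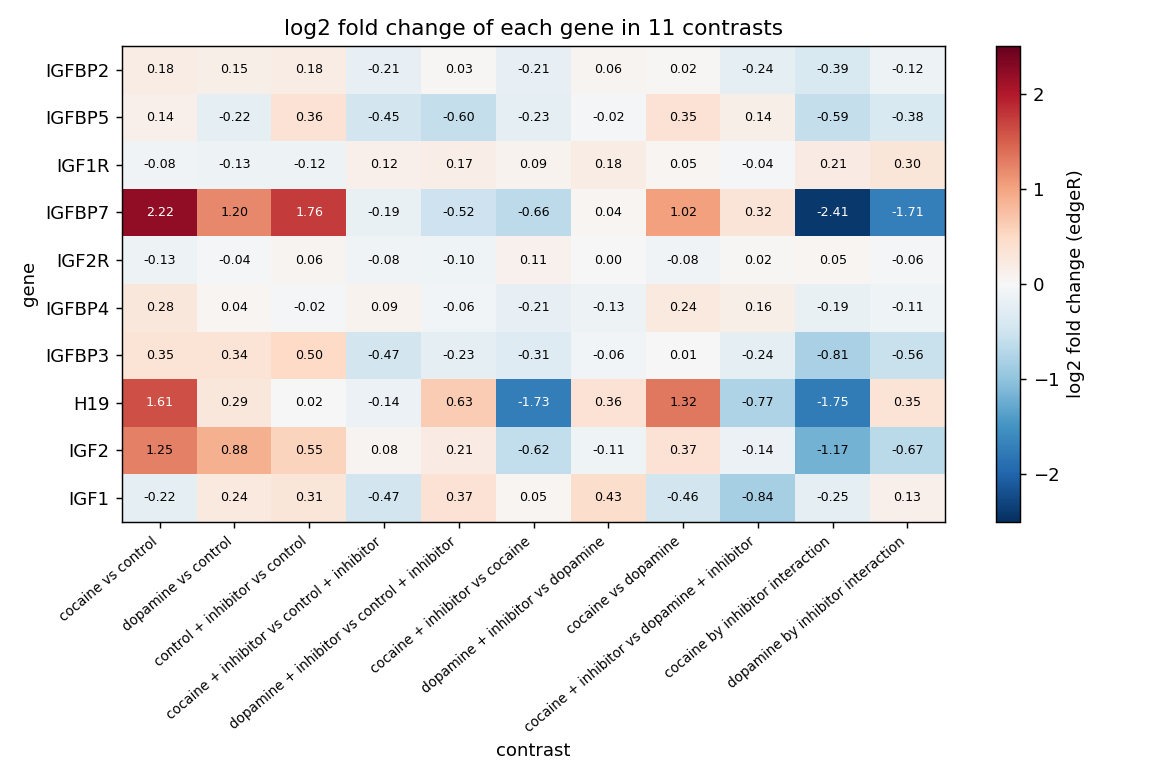
edgeR log2 fold change of the 10 genes (rows) in 11 contrasts (columns), with red for higher and blue for lower in the group named first. IGFBP7, H19 and IGF2 hold the values farthest from 0, and the receptors stay within 0.30 of it.

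Related genes of the pathway were taken as lists. In cocaine against control, 1.73% of all genes were called higher and 2.59% lower. Of 30 adaptor and PI3K-AKT-mTOR genes, all tested, 0 rose and 1 fell in cocaine against control, with a list median of -0.06 beside 0.01 for all genes. The gene that fell was TSC1, a brake on mTOR (log2 fold change -0.18, SE 0.04, edgeR adjusted p = 0.0313). In dopamine against control 0 of the 30 were called, with a median of -0.04 beside -0.0028.

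Other imprinted genes, 17 of 18 tested, gave 1 higher and 2 lower in cocaine against control, with a median of 0.01. MEST rose (log2 fold change 0.26, SE 0.07, edgeR adjusted p = 0.044). PEG10, derived from a retrotransposon, fell (-0.49, SE 0.09, edgeR adjusted p = 0.0198), as did MAGEL2 of the Prader-Willi region (-0.37, SE 0.10, edgeR adjusted p = 0.0445). In dopamine against control 0 of the 17 were called.

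The 3 IGF2 mRNA-binding protein genes, which bind and stabilize growth-related transcripts, were at 24.2 to 52.7 TPM, and 0 of 3 were called in either drug comparison. Of 9 other binding proteins, stanniocalcins and proteases, 8 were tested and 0 were called. IGFBP1 had 0 to 3 reads per library. IGFBPL1, a binding protein-like gene of young neurons picked out here after its values were seen, ran from 170 to 895 TPM and was highest in cocaine + inhibitor 1. For cocaine + inhibitor against control + inhibitor it had a log2 fold change of 1.27 with an FDR of 0.00505 in the authors' deposited table, and an edgeR adjusted p of 0.233 with overlapping groups here. For cocaine against control the authors list it with a log2 fold change of 1.14 and an FDR of 2.62e-06. Its level was 395, 512 and 879 CPM with cocaine and 195, 377 and 238 CPM in control.

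Markers of other cell types moved beside these genes. In cocaine against control, 1 of 13 choroid plexus markers was called (AQP1, log2 fold change 1.42, edgeR adjusted p = 0.0445), with a median of 1.14. Of 12 tested mesenchymal, meningeal and mural markers 1 was called (RGS5, 0.85, edgeR adjusted p = 0.0301), with summed levels of 71.8 to 80.0 TPM in control and 80.1 to 113 TPM with cocaine. Of 14 radial glia and astrocyte markers 1 rose (VIM, 0.38, edgeR adjusted p = 0.046), with a median of 0.27. Of 10 dividing cell markers 2 rose, PCNA (0.42, edgeR adjusted p = 0.0319) and MCM6 (0.32, edgeR adjusted p = 0.0348), with a median of 0.75 and all 10 above 0. Of 12 neuronal markers 2 fell, MAPT (-0.42, edgeR adjusted p = 0.0217) and DCX (-0.31, edgeR adjusted p = 0.037), with a median of -0.19 and 0 of 12 above 0. Of 11 tested ventral forebrain markers 3 fell, with a median of -0.68. They were DLX6, a factor of the ganglionic eminences (-1.05, edgeR adjusted p = 0.0365), and the GABA neuron genes SLC32A1 (-0.68, edgeR adjusted p = 0.0333) and GAD2 (-0.64, edgeR adjusted p = 0.0446). Of 5 tested endothelial and 7 tested skeletal muscle markers 0 were called, with medians of -0.07 and -0.09. Of 6 tested pigment cell and eye markers 0 were called, with a median of 1.20 and all 6 above 0. All 8 markers of that list summed to 19.9, 24.4 and 111 TPM in dopamine + inhibitor 1, 2 and 3. Library 3 of that group was also the highest for IGF1, and the part of this in its IGF1 level was not tested. In dopamine against control, where 0.703% of all genes were called, 2 of 10 hypoxia response genes rose, ADM (1.37, edgeR adjusted p = 0.027) and P4HA1 (0.39, edgeR adjusted p = 0.0201), with a median of 0.27. There 0 of 11 tested ventral forebrain markers were called, with a median of -0.91 and 2 of 11 above 0.

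Ventral forebrain markers summed to 668 to 737 TPM in control, 495 to 614 TPM with dopamine and 365 to 522 TPM with cocaine, so markers of the labelled tissue were present in each of these 3 groups. Endothelial, skeletal muscle and liver markers mark other known sources of IGF2. They summed to 2.04 to 7.01, 10.3 to 13.5 and 4.16 to 9.23 TPM, in that order. Levels differed within each list. PECAM1 was at 0 to 0.1 TPM, and MYF5 and APOA2 had 0 reads in every library. In the same lists KDR reached 2.94 TPM, TNNT1 6.33 TPM and TF 4.07 TPM. The part of any of these in the members' levels was not tested.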

How the data were processed

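Whole-number read counts per gene, not normalized, and TPM values were deposited for 18 libraries. Tables of the authors' own comparisons hold a p-value, an FDR and a log2 fold change, per the file headers; their comparators were matched from group mean TPM. The submitters' processing notes name the build GRCh38 (hg38), and no source used here names the aligner, counter, strand setting or the authors' test. Counts were fitted with edgeR 4.0.16 in R 4.3.3: TMM scaling, an expression filter with a minimum count of 10, 1 mean for each of 6 groups over 18 libraries, and the two-sided robust quasi-likelihood F-test in 11 contrasts, with Benjamini-Hochberg adjustment over 18913 genes. Differences between libraries are in CPM and differences between genes in TPM. Alternatives were relative log expression scaling, no filter, DESeq2 1.42.0, limma-voom (limma 3.58.1), a fit of the compared groups alone, and leaving out each library. Scripts were tested on simulated data. Correlations used log2 CPM (prior count 2) and 100000 permutations. The permutations ran over all 18 libraries without regard to group, so differences between groups enter their p-values. All 10 member genes are named, with called genes of each list and, for IGF2 and H19, the 5 genes of highest correlation, of which 1 is not reported here. The members and lists were chosen with earlier results of these data known. Another cell line that the series' text mentions was not analysed here.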

Additional observations from a re-analysis of the deposited data

How the results depend on the processing

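In cocaine against control, DESeq2 called 2 of the 10 genes, against 1 in edgeR, and leaving out a library gave 0 to 1: the count was 0 without cocaine 2, cocaine 3 or any single control. Values of this comparison led to the choice of IGF2, so these counts support nothing. In dopamine against control, DESeq2 called 1 and the fit of the compared groups alone called 1, against 0 in edgeR over all groups. The cause was not tested. The controls of this comparison also entered the choice of IGF2, so its calls here support nothing. The sign turned for IGF2 in cocaine + inhibitor against control + inhibitor, from 0.08 to -0.06 without cocaine + inhibitor 2 and to -0.13 without control + inhibitor 2 (range -0.13 to 0.29), and for H19 in cocaine against control, from 1.61 to -0.068 without cocaine 2 (range -0.068 to 2.07). In the other 9 comparisons no alternative called a member. No paired analysis was possible because the labels give no replicate numbers that groups share. At 25 to 349 reads per library, H19 is the member whose level is least precise, and 3 libraries per group limit every comparison.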
